A study of Mus musculus with 24 samples.

Results

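Endothelial cells of the heart were followed through 10 of their marker genes, Cldn5, Cdh5, Pecam1, Emcn, Kdr, Flt1, Tek, Tie1, Egfl7 and Vwf, in bulk RNA of mouse hearts. Each gene was found by its symbol among the 20961 genes listed, and all 10 were among the 17203 genes with enough counts to be tested. The 24 libraries came from wild-type males and females of 3 inbred strains. NZO/HlLtJ is a polygenic strain prone to obesity and diabetes, CAST/EiJ descends from wild-caught Mus musculus castaneus, and C57BL/6J is a common laboratory strain. Mice of each strain and sex ate either the diet labelled 44% fat + fiber, which the treatment text describes as rich in fat and sugar, or the diet labelled 10% fat + fiber, its control. Feeding began at 6 weeks of age and hearts were taken at 15 weeks. With 12 combinations of strain, sex and diet and 2 libraries of each, a strain comparison set 8 libraries against 8 and a diet comparison within a strain set 4 against 4. Because the labels do not say that both libraries of a group came from different animals, p-values here measure only how much these samples vary, which may be technical.

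The endothelium lines every vessel and chamber of the heart, and in the myocardium most of it forms capillaries that run alongside the muscle cells. VE-cadherin, encoded by Cdh5, and the tight junction protein claudin-5, encoded by Cldn5, seal neighbouring cells, and Pecam1 encodes an adhesion molecule at the same contacts. Vascular endothelial growth factor A signals mainly through the receptor encoded by Kdr, while the product of Flt1 binds that factor tightly with weak signalling and so acts largely as a trap. Tek encodes the receptor for angiopoietins, a pathway that keeps vessels quiescent, and Tie1 encodes its co-receptor. Emcn encodes a surface sialomucin of capillaries and veins, Egfl7 a secreted matrix factor whose gene also hosts a microRNA, and Vwf the clotting factor that endothelial cells store and release.

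The libraries held between 30205073 and 52254058 counts, and TMM factors, which scale library sizes, lay between 0.954 and 1.06. Mitochondrially encoded genes held 20.9% to 23.9% of counts in NZO/HlLtJ, 20.2% to 23.4% in CAST/EiJ and 25.8% to 28.8% in C57BL/6J libraries. With those genes left out, the counts of the 10 genes called between strains were the same, 4, 3 and 4 in the order of comparisons given later. Levels are given as CPM, counts scaled to a common library size with those factors. Heart muscle was plainly represented, with 10 cardiomyocyte markers summing to between 60549 and 74815 CPM. The sample identifiers in the labels fall into 3 ranges. NZO/HlLtJ has no library in the first range, which holds 4 CAST/EiJ and 4 C57BL/6J libraries, and the meaning of the ranges is not given. The first CAST/EiJ female library at 44% fat was the highest of all 24 libraries in 7 of the 10 genes (Cldn5, Cdh5, Pecam1, Kdr, Tek, Tie1 and Egfl7). The 10 genes summed to 1510 CPM in that library, against 1127 to 1307 CPM in the other CAST/EiJ libraries. Its 10 cardiomyocyte markers summed to 60608 CPM, against 64337 to 73003 CPM in the other CAST/EiJ libraries, and the part of this difference in the values below was not tested.

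Per kilobase of merged exons, the only scale on which different genes are compared here, Cdh5 was the most abundant of the 10 genes, with a mean of 44.8 CPM per kb and a range of 36.3 to 62.3 CPM per kb over the 24 libraries. Kdr at 26.5 and Pecam1 at 26.0 CPM per kb followed, and the range of Kdr, 13.3 to 37.6 CPM per kb, enclosed that of Pecam1, 22.2 to 31.0 CPM per kb. The co-receptor gene Tie1 averaged 18.8, Egfl7 15.4 and the angiopoietin receptor gene Tek 14.9 CPM per kb. Flt1 averaged 12.3, Vwf 10.6, Cldn5 9.66 and Emcn 6.55 CPM per kb, so the most and least abundant of the 10 lay far apart while every pair of neighbours in this order overlapped in range. Even Emcn exceeded 76.3% of the genes tested on this scale, and Cdh5 exceeded 96.4%. Counts of Egfl7 and Cdh5 are less certain than the others, because Egfl7 (chr2:26580014-26593120, plus strand, GRCm38) overlaps Agpat2 on the opposite strand and Gm20532 on the same strand, and Cdh5 (chr8:104101625-104144502, plus strand) overlaps the antisense gene Gm29682. How the authors' counting treated strand is not given in the sources used here.

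Promoter sequences from RefSeq (GRCm38.p6, 250 bases before to 50 after the start site) were matched by symbol for 7 of the 10 genes, and Pecam1, Cdh5 and Vwf had no entry. The windows shown are those of the 4 genes with an entry whose strain differences are described next, because these genes moved in different directions between the same strains. Capitals mark the ETS-like letters AGGAAG or CGGAAG and the GATA-like letters AGATAA on either strand, so CTTCCT is AGGAAG read from the other strand, and the marked sites do not overlap one another. The windows lie at chr4:118489800-118490099 (minus strand) for Tie1, chr4:94739039-94739338 (plus) for Tek, chr5:147725962-147726261 (minus) for Flt1 and chr3:137340828-137341127 (plus) for Emcn.
Tie1: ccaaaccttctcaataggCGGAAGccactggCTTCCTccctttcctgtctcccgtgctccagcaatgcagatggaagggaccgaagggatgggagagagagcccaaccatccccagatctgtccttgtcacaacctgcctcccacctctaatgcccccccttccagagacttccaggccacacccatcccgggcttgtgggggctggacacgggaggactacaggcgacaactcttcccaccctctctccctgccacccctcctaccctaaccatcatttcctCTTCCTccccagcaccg
Tek: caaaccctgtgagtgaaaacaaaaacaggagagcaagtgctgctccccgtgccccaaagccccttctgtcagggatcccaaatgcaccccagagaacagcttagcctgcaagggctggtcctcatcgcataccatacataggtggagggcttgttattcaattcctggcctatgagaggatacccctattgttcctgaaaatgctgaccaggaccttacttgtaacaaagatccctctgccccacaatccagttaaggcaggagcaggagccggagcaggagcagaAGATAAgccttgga
Flt1: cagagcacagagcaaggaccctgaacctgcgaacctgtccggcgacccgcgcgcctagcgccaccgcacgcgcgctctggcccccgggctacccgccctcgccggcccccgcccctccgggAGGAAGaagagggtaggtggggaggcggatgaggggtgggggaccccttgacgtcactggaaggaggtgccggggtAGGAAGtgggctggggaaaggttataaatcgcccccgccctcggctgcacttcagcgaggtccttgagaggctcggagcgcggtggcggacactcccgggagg
Emcn: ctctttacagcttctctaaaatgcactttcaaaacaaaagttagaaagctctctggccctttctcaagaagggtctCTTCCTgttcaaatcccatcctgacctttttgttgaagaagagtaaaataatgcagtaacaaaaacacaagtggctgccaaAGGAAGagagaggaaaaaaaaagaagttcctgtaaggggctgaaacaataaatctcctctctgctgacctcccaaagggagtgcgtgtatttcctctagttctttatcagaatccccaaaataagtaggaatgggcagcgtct
ETS factors are central regulators of endothelial genes, and the searched letters AGGAAG or CGGAAG stand in 3 places in the Tie1 window, in 2 in that of Flt1 and in 2 in that of Emcn. Egfl7, not called between strains, has 3 windows, which hold AGGAAG in 3, 2 and 0 places. Shorter or other ETS-like letters were not searched. The Tek window holds AGATAA at base 37 after the start site and neither ETS-like motif. The windows of Kdr and Cldn5 hold none of these motifs, and the FOX-like letters GTAAACA, also searched on both strands, occur in no window of the 7 genes. AGGAAG occurs in 35.4% of all 32851 promoter windows, CGGAAG in 16.9%, AGATAA in 11.2% and GTAAACA in 3.6%, so these matches describe the letters only.

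In at least 1 of the 3 strain comparisons 5 of the 10 genes differed, and they did not move together. The share of all genes that differed in at least 1 of them was not computed. It cannot be below 60.3%, the largest share of a single comparison given below. Tie1 and Tek were highest in CAST/EiJ hearts, Flt1 was higher in both NZO/HlLtJ and CAST/EiJ than in C57BL/6J hearts, Emcn was highest in NZO/HlLtJ hearts, and Vwf was lowest there. Between NZO/HlLtJ and C57BL/6J, 2 of the 10 genes were called higher and 2 lower by edgeR's quasi-likelihood test at a Benjamini-Hochberg adjusted p under 0.05 over all genes, where 35.5% of all genes tested were called, 17.9% higher and 17.6% lower. Between CAST/EiJ and C57BL/6J, 3 were called higher and 0 lower, where 58.8% of all genes were called (29.1% higher, 29.7% lower). There 3 of the 10 had an unadjusted p under 0.05, as had 10799 of the 17203 genes tested. Between NZO/HlLtJ and CAST/EiJ, 1 was called higher and 3 lower, where 60.3% of all genes were called (30.5% higher, 29.8% lower). The share of the 10 genes called was thus near that of all genes for NZO/HlLtJ against C57BL/6J and below it for the comparisons with CAST/EiJ. The median log2 change of the 10 genes was -0.10, 0.05 and -0.07 in these comparisons in the order given, and that of all genes was 0.00 in each. The 3 comparisons share libraries and are not independent of each other. In bulk RNA, fewer endothelial cells and less RNA of a gene per cell cannot be told apart. The processing notes name the build GRCm38. Whether reads were assigned with the sequence of each strain is not given in the sources used here. Its part in this and every other strain difference below was not tested.

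**Figure D1:**
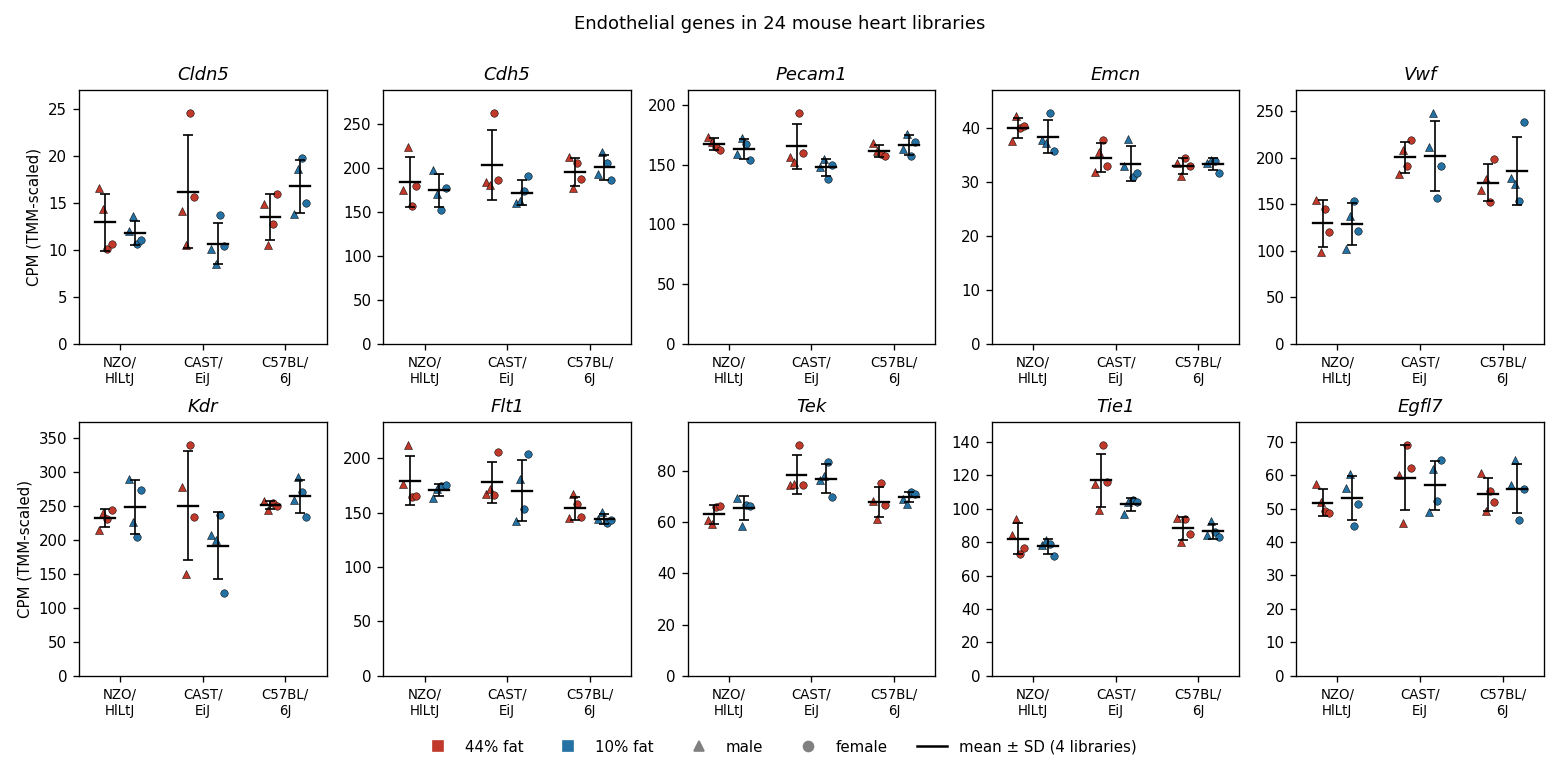
Levels of the 10 endothelial genes in CPM (y axes from 0) in every library, by strain (x axes) and diet (colour). Triangles are males, circles females, and bars give the mean and SD of 4 libraries. Tie1 lay between 97.0 and 138 CPM in CAST/EiJ hearts, above all libraries of the other strains, and Kdr spread from 121 to 339 CPM within CAST/EiJ.

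The Tie receptor genes were highest in CAST/EiJ hearts. Tie1 (chr4:118471191-118490061, minus strand) had a lowest, median and highest level of 97.0, 105 and 138 CPM in CAST/EiJ hearts, against 80.05, 85.4 and 94.3 CPM in C57BL/6J hearts. Every CAST/EiJ library lay above every C57BL/6J library, a log2 change of 0.32 (SE 0.05, adjusted p = 1.44e-05). NZO/HlLtJ hearts ran from 71.4 through a median of 78.4 to 93.9 CPM, below every CAST/EiJ library, and the log2 change of NZO/HlLtJ against CAST/EiJ was -0.46 (SE 0.05, adjusted p = 1.63e-07). Against C57BL/6J, 5 of the 8 NZO/HlLtJ libraries lay below the lowest C57BL/6J one, and the log2 change was -0.14 (SE 0.05, adjusted p = 0.0377). This last call was lost with the identifier range as a term (log2 change -0.09, adjusted p = 0.148), within the later 2 ranges (-0.10, adjusted p = 0.289) and in a fit of strain by diet plus sex (-0.13, adjusted p = 0.081). It was also lost without any 1 of 4 NZO/HlLtJ libraries (the first female one at 44% fat, the second female one at 10% fat, and the first male one on each diet) or 4 C57BL/6J libraries (the first female library on each diet, the first male library at 44% fat and the second male library at 10% fat). Over all left-out libraries the log2 change ran from -0.17 to -0.11 and the adjusted p from 0.0151 to 0.113.

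Tek (chr4:94739289-94874976, plus strand) had a lowest, median and highest level of 69.6, 75.7 and 90.0 CPM in CAST/EiJ hearts, against 61.2, 68.7 and 75.2 CPM in C57BL/6J hearts. The ranges overlapped, with 4 of the 8 CAST/EiJ libraries above all C57BL/6J libraries, and the log2 change was 0.18 (SE 0.05, adjusted p = 0.00439). NZO/HlLtJ hearts held 58.6, 66.0 and 69.5 CPM, so that every NZO/HlLtJ library lay below every CAST/EiJ library, at a log2 change of -0.28 (SE 0.05, adjusted p = 7e-05). The gap was narrow, since the highest NZO/HlLtJ library stood at 69.5 and the lowest CAST/EiJ library at 69.6 CPM. Between NZO/HlLtJ and C57BL/6J the log2 change of -0.10 (SE 0.05, adjusted p = 0.118) did not pass, except without the first NZO/HlLtJ male library at 10% fat (-0.13, adjusted p = 0.0436). Tek and Tie1 therefore shared the order CAST/EiJ, C57BL/6J, NZO/HlLtJ in their medians, and the last step of that order was called for Tie1 and not for Tek, a difference between the genes that was not tested.

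The VEGF receptor genes differed from each other in how they followed strain. Flt1 (chr5:147561604-147726011, minus strand) had a lowest, median and highest level of 163, 173 and 212 CPM in NZO/HlLtJ hearts, against 140, 146 and 167 CPM in C57BL/6J hearts. In CAST/EiJ hearts the same values were 142, 169 and 206 CPM. Both strains overlapped C57BL/6J, with 5 NZO/HlLtJ and 4 CAST/EiJ libraries above its highest. The log2 change against C57BL/6J was 0.23 (SE 0.07, adjusted p = 0.0133) in NZO/HlLtJ and 0.22 (SE 0.07, adjusted p = 0.0101) in CAST/EiJ. NZO/HlLtJ against CAST/EiJ gave 0.01 (SE 0.07, adjusted p = 0.907).

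The log2 changes of Flt1 and Kdr varied with the identifier ranges included, and these differences between ranges were not tested. Within the first range, the log2 change of Flt1 in CAST/EiJ against C57BL/6J was 0.09 (SE 0.05, adjusted p = 0.187), and within the later 2 ranges it was 0.33 (SE 0.08, adjusted p = 0.00375). With the range as a term in the fit, Flt1 in NZO/HlLtJ against C57BL/6J fell short of the threshold at 0.15 (SE 0.06, adjusted p = 0.0546). Kdr, the main signalling receptor for VEGF-A, passed in no strain comparison over all libraries, and its 12 group means left the widest spread between libraries of the 10 genes, a residual SD of 0.321 on the log2 scale. Its lowest, median and highest levels were 121, 221 and 339 CPM in CAST/EiJ hearts, against 234, 255 and 292 CPM in C57BL/6J hearts. NZO/HlLtJ hearts lay between 204 and 289 CPM, with a median of 235 CPM. Both the highest and the lowest Kdr library were CAST/EiJ, and the log2 change of CAST/EiJ against C57BL/6J was -0.24 (SE 0.16, adjusted p = 0.198). It was 0.00 (SE 0.06, adjusted p = 0.965) within the first identifier range and -0.54 (SE 0.19, adjusted p = 0.0374) within the other ranges. Kdr was also called lower in CAST/EiJ without the first CAST/EiJ female library at 10% fat, at -0.39 (adjusted p = 0.0277), and without the first CAST/EiJ male library at 44% fat, at -0.37 (adjusted p = 0.0388). NZO/HlLtJ against CAST/EiJ gave 0.14 (SE 0.16, adjusted p = 0.452) for Kdr, and within the later 2 ranges Kdr was called higher in NZO/HlLtJ, at 0.45 (SE 0.16, adjusted p = 0.0388).

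**Figure D2:**
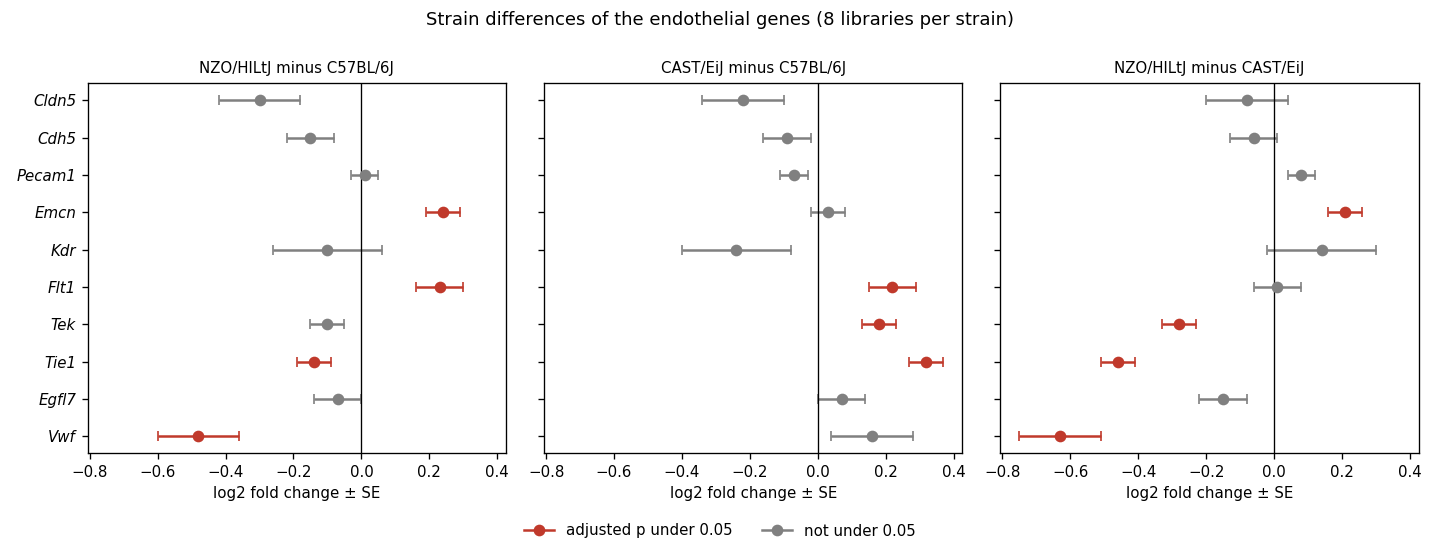
Log2 fold changes (x axes) of the 10 endothelial genes (y axis) between strains, with bars of 1 SE and 8 libraries per strain; red marks an adjusted p under 0.05. Tie1, Tek and Vwf lie left of 0 for NZO/HlLtJ against CAST/EiJ, at -0.46, -0.28 and -0.63, and Emcn lies right of it at 0.21.

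Emcn and Vwf set NZO/HlLtJ hearts apart in opposite directions. Emcn (chr3:137341067-137432185, plus strand) had a lowest, median and highest level of 35.8, 38.9 and 42.7 CPM in NZO/HlLtJ hearts, against 31.0, 33.4 and 34.5 CPM in C57BL/6J hearts. All 8 NZO/HlLtJ libraries lay above all C57BL/6J libraries, a log2 change of 0.24 (SE 0.05, adjusted p = 0.000491). CAST/EiJ hearts held 30.9, 33.0 and 38.0 CPM and overlapped both strains. Emcn was higher in NZO/HlLtJ than in CAST/EiJ by a log2 change of 0.21 (SE 0.05, adjusted p = 0.000865), and CAST/EiJ against C57BL/6J gave 0.03 (SE 0.05, adjusted p = 0.558).

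Vwf (chr6:125546774-125686679, plus strand) had a lowest, median and highest level of 98.6, 130 and 155 CPM in NZO/HlLtJ hearts, against 153, 175 and 239 CPM in C57BL/6J hearts. Of the 8 NZO/HlLtJ libraries, 6 lay below every C57BL/6J library, and the log2 change was -0.48 (SE 0.12, adjusted p = 0.00788). In CAST/EiJ hearts the values were 157, 200 and 248 CPM, all above NZO/HlLtJ, at a log2 change of -0.63 for NZO/HlLtJ against CAST/EiJ (SE 0.12, adjusted p = 0.000483). CAST/EiJ against C57BL/6J gave 0.16 (SE 0.12, adjusted p = 0.283). Megakaryocytes and platelets also make von Willebrand factor, and their 7 markers summed to overlapping ranges of 10.7 to 31.4 CPM in NZO/HlLtJ, 12.6 to 24.5 CPM in CAST/EiJ and 12.8 to 36.7 CPM in C57BL/6J libraries. Of the 7, 0 were called higher and 1 lower in NZO/HlLtJ and 1 higher and 4 lower in CAST/EiJ, each against C57BL/6J, and 2 higher and 1 lower in NZO/HlLtJ against CAST/EiJ. Their part in the Vwf differences was not tested.

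The junction genes and Egfl7 passed in no strain comparison. Pecam1 was the steadiest of the 10 genes, with a residual SD of 0.079 on the log2 scale and levels of 154 to 173 CPM in NZO/HlLtJ, 138 to 193 CPM in CAST/EiJ and 157 to 176 CPM in C57BL/6J hearts. Its log2 change was 0.01 (SE 0.04, adjusted p = 0.867) in NZO/HlLtJ against C57BL/6J. In CAST/EiJ against C57BL/6J it was -0.07 (SE 0.04, adjusted p = 0.138). Cdh5 had a lowest, median and highest level of 152, 176 and 224 CPM in NZO/HlLtJ and 160, 182 and 262 CPM in CAST/EiJ hearts, against 177, 199 and 218 CPM in C57BL/6J hearts. The Cdh5 ranges overlapped in each pair of strains, although 5 NZO/HlLtJ and 3 CAST/EiJ libraries lay below the lowest C57BL/6J one, and its smallest adjusted p was 0.14, for NZO/HlLtJ against C57BL/6J (log2 change -0.15, SE 0.07). Egfl7 had medians of 51.5 CPM in NZO/HlLtJ, 60.9 CPM in CAST/EiJ and 55.4 CPM in C57BL/6J hearts, and its smallest adjusted p was 0.0962, for NZO/HlLtJ against CAST/EiJ (log2 change -0.15, SE 0.07). It passed in that comparison without any 1 of 3 CAST/EiJ libraries, the first female or first male library at 10% fat or the second male library at 44% fat, the lowest adjusted p being 0.0257.

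Cldn5 had a lowest, median and highest level of 10.1, 11.5 and 16.6 CPM in NZO/HlLtJ hearts, against 10.5, 14.95 and 19.8 CPM in C57BL/6J hearts. The groups overlapped, and the log2 change of -0.30 (SE 0.12, adjusted p = 0.0595) lay just outside the threshold. It passed under DESeq2 (adjusted p = 0.0274) and in a fit of only the strains compared (adjusted p = 0.0238). It also passed without any 1 of 5 libraries, either CAST/EiJ female library at 44% fat, the first male or second female C57BL/6J library at 10% fat or the second C57BL/6J male library at 44% fat (lowest adjusted p 0.0298). It did not pass under limma-voom (-0.27, adjusted p = 0.09). With the identifier range as a term it was -0.18 (adjusted p = 0.258), and within the later 2 ranges -0.27 (adjusted p = 0.279). CAST/EiJ hearts held 8.48, 12.1 and 24.6 CPM, and against C57BL/6J the log2 change was -0.22 (SE 0.12, adjusted p = 0.116). Without the first CAST/EiJ female library at 44% fat, Cldn5 at -0.31 (adjusted p = 0.0233) and Pecam1 at -0.10 (adjusted p = 0.0185) were called lower in CAST/EiJ than in C57BL/6J, which brought the count of the 10 genes called to 3 higher and 2 lower. Without that library Pecam1 was also called higher in NZO/HlLtJ than in CAST/EiJ (0.11, adjusted p = 0.0106).

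Diet moved none of the 10 genes past the threshold. By edgeR, 0 of 10 were called for 44% against 10% fat in NZO/HlLtJ, in CAST/EiJ and in C57BL/6J, where 0%, 0% and 0.0407% of all genes tested were called in these strains in turn, the last made up of 0.0349% higher and 0.00581% lower. Over all strains 0 of 10 were called, where 0.157% of all genes were, 0.128% higher and 0.0291% lower. An unadjusted p under 0.05 was reached by 0 genes in NZO/HlLtJ, 4 in CAST/EiJ, 0 in C57BL/6J and 1, Tie1, over all strains (log2 change 0.10, SE 0.04, adjusted p = 0.466). Of all 17203 genes tested, 1233, 1137, 966 and 1515 reached it in these comparisons in turn. DESeq2 and limma-voom also called 0 of 10 in each of these comparisons, again with 4 genes in CAST/EiJ and 1 over all strains at an unadjusted p under 0.05. The SE of a diet effect within a strain ran from 0.06 for Pecam1 to 0.22 for Kdr on the log2 scale. Even the 0.57 of Cldn5 in CAST/EiJ (SE 0.17, adjusted p = 0.561) did not pass, so diet effects of that size were not shown at this replication.

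The largest diet differences of the 10 genes, those of Cldn5 and Kdr, lay in CAST/EiJ hearts. For Flt1, Tek, Emcn and Vwf the change was larger in size in another strain, and none of these changes was called. Cldn5 stood at 24.6, 15.7, 14.2 and 10.5 CPM in the 4 libraries at 44% fat, against 13.7, 10.4, 10.1 and 8.48 CPM in the 4 at 10% fat. Of the 44% libraries, 3 lay above all 10% libraries, and the log2 change was 0.57 (SE 0.17, adjusted p = 0.561). Without its highest library the change was 0.40 (adjusted p = 0.972), and within the first identifier range it was 0.69 (SE 0.21, adjusted p = 0.378). In the later 2 ranges the CAST/EiJ diets fall in different ranges, so that diet and identifier range cannot be told apart there. Pecam1 stood at 193, 160, 156 and 152 CPM at 44% fat, against 155, 150, 148 and 138 CPM at 10% fat, a log2 change of 0.15 (SE 0.06, adjusted p = 0.645). The log2 change of Tie1 was 0.19 (SE 0.07, adjusted p = 0.656) and that of Cdh5 0.24 (SE 0.11, adjusted p = 0.725), and for these genes too the diets overlapped. Kdr stood at 339, 278, 234 and 149 CPM at 44% fat, against 237, 207, 200 and 121 CPM at 10% fat, with overlap and a log2 change of 0.37 (SE 0.22). Without the first female library at 44% fat the changes were 0.11 for Cdh5, 0.09 for Pecam1, 0.12 for Tie1 and 0.23 for Kdr, each smaller than with it by more than 1.5 times. With all libraries 10 of the 10 genes had a positive log2 change in CAST/EiJ, as had 8197 of the 17203 genes tested. The median of the 10 was 0.11, against -0.01 over all genes tested. The 10 genes share their libraries, so their signs are not independent of each other. The count of positive changes among the 10 was 9 without that library, 7 without either the first female or the first male library at 10% fat, and 6 in the later 2 identifier ranges. It was also 6, with a median of 0.06, without both the first female library at 44% fat and the first male library at 10% fat.

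In C57BL/6J hearts the diet differences of the same genes lay mostly below 0, with 8 of 10 negative and a median of -0.04, against 0.00 over all genes. Of all 17203 genes tested, 8405 had a positive change in this strain. Cldn5 stood at 16.0, 14.9, 12.8 and 10.5 CPM at 44% fat, against 19.8, 18.6, 15 and 13.9 CPM at 10% fat. These groups overlapped, and the log2 change was -0.31 (SE 0.17, adjusted p = 0.93). In NZO/HlLtJ hearts 7 of 10 changes were positive, with a median of 0.05 against -0.01 over all genes, and none of the 10 exceeded 0.11 in size. A positive change there was held by 8245 of all 17203 genes tested. The difference of the diet effect between CAST/EiJ and C57BL/6J was largest for Cldn5, at 0.89 on the log2 scale (SE 0.24, adjusted p = 0.681). By edgeR, 0 of 10 genes were called in any of the 3 tests of such differences, where 0.00581% of all genes were called for NZO/HlLtJ minus C57BL/6J and 0% in the other pairs. For CAST/EiJ minus C57BL/6J, an unadjusted p under 0.05 was reached by 2, Cldn5 and Pecam1, and by 1123 of all 17203 genes tested. DESeq2 and limma-voom called 0 of 10 in these 3 tests and for sex as well. Sex called 0 of 10, where 0.372% of all genes were called (0.198% higher and 0.174% lower in males), and Tek had the only unadjusted p under 0.05 of the 10, with a log2 change of -0.09 in males against females (SE 0.04, adjusted p = 0.54). Of all 17203 genes tested, 1539 had an unadjusted p under 0.05 for sex.

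**Figure D3:**
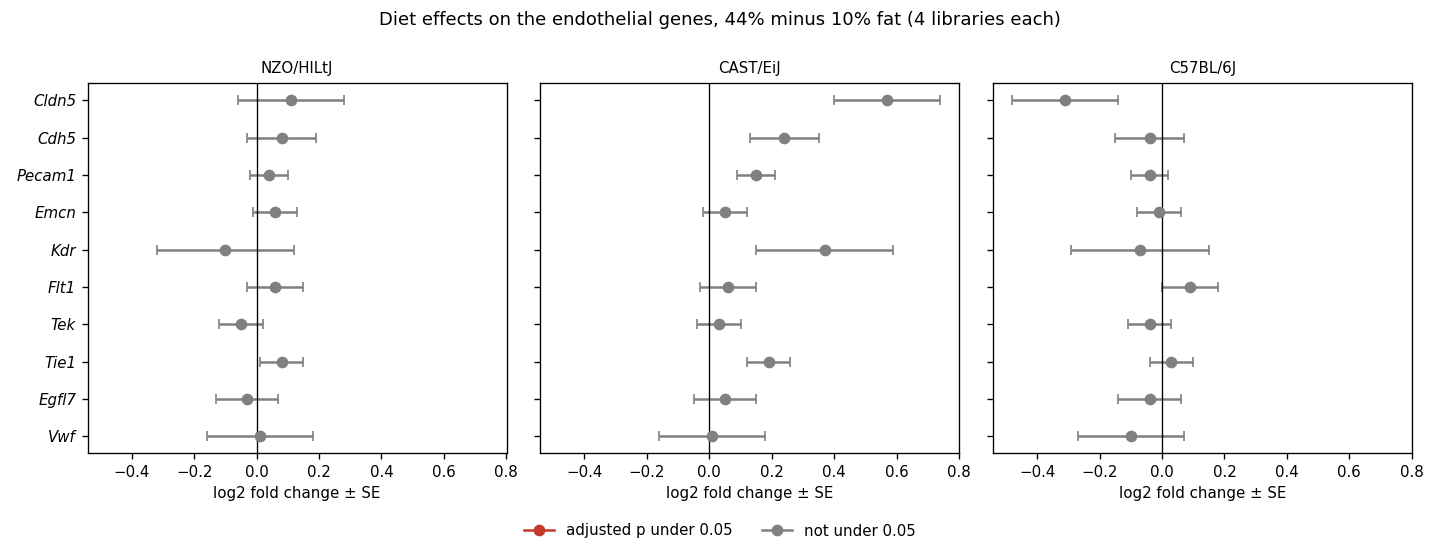
Log2 fold changes (x axes) of the 10 endothelial genes (y axis) for 44% against 10% fat in each strain, with bars of 1 SE and 4 libraries per diet; no point reached an adjusted p under 0.05. Points for CAST/EiJ lie right of 0, from 0.01 to 0.57, and 8 of 10 points for C57BL/6J lie left of it.

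The 10 genes covaried only in part from library to library once the 12 group means were removed, which left 12 degrees of freedom. Of the 45 pairs, 29 had a positive Pearson r, with a median of 0.21. Each pair shares its libraries and their depth, and the values are descriptions. Cdh5 and Tie1 had the highest r at 0.65, followed by Cldn5 and Kdr at 0.63, Pecam1 and Tie1 at 0.61, and Kdr and Tek at 0.61. Tie1 was the closest partner of Cdh5, Pecam1 and Emcn (0.59). Egfl7 was closest to Pecam1 at 0.57. Flt1 and Vwf ran against several of the others. Flt1 had an r of -0.69 with Cldn5, -0.62 with Tek and -0.54 with Kdr, and its closest partner was Egfl7 at 0.20. Vwf had an r of -0.68 with Cdh5 and -0.58 with Kdr, and its closest partner was Pecam1 at 0.33.

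**Figure D4:**
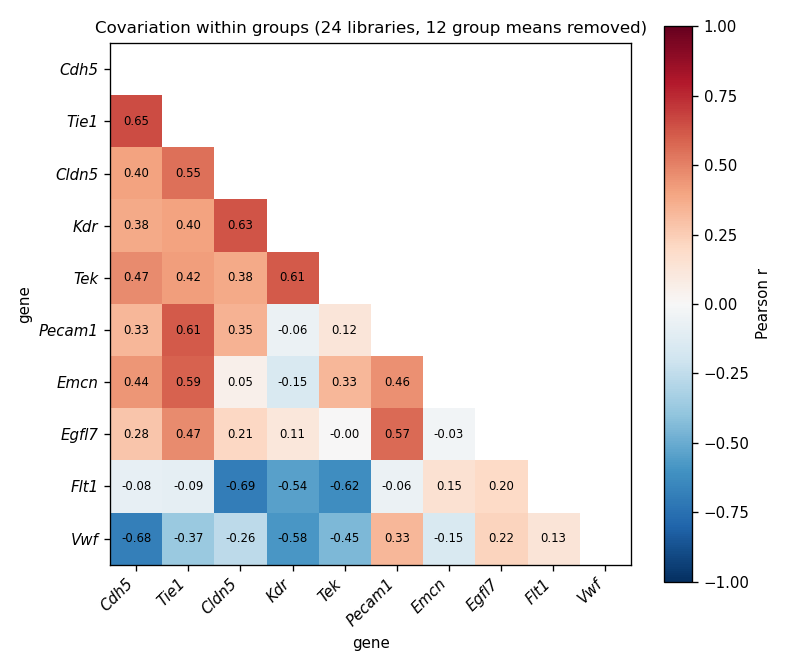
Pearson r (colour and printed values) between the 10 endothelial genes over 24 libraries after the 12 group means were removed. Values for Cdh5, Tie1, Cldn5, Kdr and Tek with each other are all positive, between 0.38 and 0.65, while Flt1 and Vwf have negative values with those 5 genes.

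An index of the 10 genes, the mean of their log2 CPM after centring each gene on all 24 libraries, ran from -0.12 to 0.01 in NZO/HlLtJ, from -0.08 to 0.38 in CAST/EiJ and from -0.09 to 0.12 in C57BL/6J libraries. The 10 genes summed to a mean of 1136 ± 36.0 CPM in NZO/HlLtJ and 1233 ± 132 CPM in CAST/EiJ hearts, against 1208 ± 37.9 CPM in C57BL/6J hearts (SD, n = 8 each). The medians were 1132, 1190 and 1198 CPM in that order, and without its highest library the CAST/EiJ mean was 1193 ± 74.1 CPM (SD, n = 7), below that of C57BL/6J. Other genes were ranked by Pearson r with the index among 12131 genes of at least 1 CPM. Over all libraries the highest was Pxdn, which encodes a peroxidase that crosslinks collagen IV, at 0.888. Rnf144a at 0.836, Fam101b at 0.809 and Arhgef15, a guanine nucleotide exchange factor gene of endothelial cells, at 0.781 came next, followed by Trp53i11, Tmem173, Ralgds and Tor3a between 0.766 and 0.78. With group means removed the highest were Rgp1 at 0.886, Ttc12 at 0.872, Tlr6 at 0.869, Cdk9 at 0.857 and Col4a3 at 0.856, then Spata6, Col4a1 and Tnfrsf11a between 0.838 and 0.842. Col4a1 and Col4a3 encode chains of the basement membrane collagen IV. Of the 8 genes named in each case, 2 over all libraries and 3 with group means removed were also among the first 8 by Spearman's rho. By rho the 8 ranked from 1 (Pxdn) to 481 (Tor3a) over all libraries. With group means removed they ranked from 1 (Rgp1) to 256 (Spata6). These are the highest of 12131 values, for which no chance level was computed.

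Genes of the pathways around the 10 receptors and junction proteins were also called between strains, and none was called for diet. A lack of calls does not show that diet left them unchanged. Of 124 genes in 12 lists, 123 were tested, all but Adamts13. Between NZO/HlLtJ and C57BL/6J, 30 were called higher and 9 lower, or 31.7% against 35.5% of all genes. Between CAST/EiJ and C57BL/6J, 52 were called higher and 22 lower, or 60.2% against 58.8% of all genes. Between NZO/HlLtJ and CAST/EiJ, 35 were called higher and 43 lower, or 63.4% against 60.3% of all genes. These pooled shares are near the background. Single lists ran from 5.56% called (transcription factors) to 66.7% (angiopoietin genes) in NZO/HlLtJ against C57BL/6J, and from 11.1% (BMP9 and ALK1 genes) to 85.7% (lymphatic genes) in CAST/EiJ against C57BL/6J. The shares of all genes called, 35.5% and 58.8%, are the background for every list count against C57BL/6J that follows. None of the 123 was called for diet, for a difference of diet effects or for sex, with smallest adjusted p of 0.0662 for diet over all strains, Angpt1, and 0.0755 for sex, Lpl. Of all genes, at most 0.157% were called for diet, at most 0.00581% for a difference of diet effects and 0.372% for sex. A count of 0 is near those shares and sets these genes apart from no others.

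Among the ligands of the receptors, Angpt1, which encodes the activating angiopoietin, had the strain order of Tek and Tie1 with larger log2 changes. Its median was 33.9 CPM in NZO/HlLtJ and 75.7 CPM in CAST/EiJ hearts, against 50.6 CPM in C57BL/6J hearts (n = 8 each). The lowest CAST/EiJ library, at 67.3 CPM, stood above the highest C57BL/6J library, at 58.6 CPM, while NZO/HlLtJ at 21.9 to 44.1 CPM overlapped C57BL/6J at 34.3 to 58.6 CPM. The log2 change was 0.67 in CAST/EiJ (SE 0.08, adjusted p = 2.68e-06) and -0.55 in NZO/HlLtJ (SE 0.08, adjusted p = 7.14e-05), each against C57BL/6J. For diet, Angpt1 averaged 28.7 ± 4.84 CPM at 44% fat and 39.1 ± 4.02 CPM at 10% fat in NZO/HlLtJ hearts (SD, n = 4 each). In CAST/EiJ hearts the means were 71.2 ± 5.58 CPM at 44% and 86.4 ± 12.1 CPM at 10% fat, and in C57BL/6J hearts 44.2 ± 7.29 CPM at 44% and 54.2 ± 4.33 CPM at 10% fat. The mean was thus lower at 44% fat in each strain, but the log2 change over all strains, -0.33 (SE 0.07, adjusted p = 0.0662), did not pass.

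**Figure D5:**
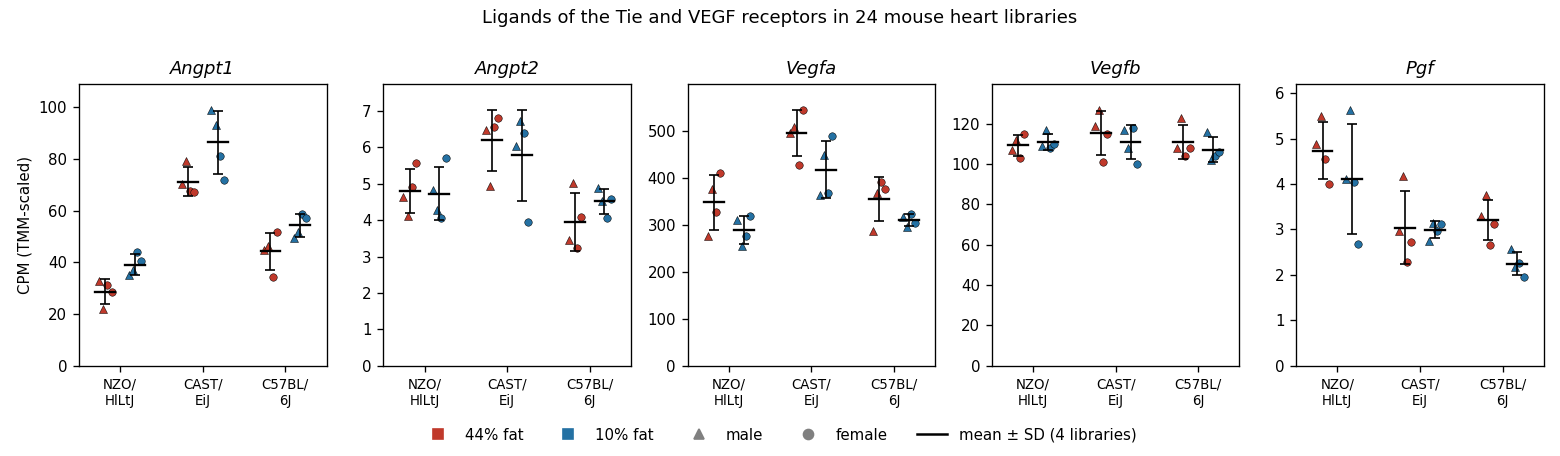
Levels in CPM (y axes from 0) of genes for angiopoietin and VEGF family ligands in every library, by strain (x axes) and diet (colour). Triangles are males, circles females, and bars give the mean and SD of 4 libraries. Angpt1 in CAST/EiJ hearts, from 67.3 to 99.1 CPM, lies above all libraries of the other strains, and Vegfb is nearly level at means of 109 to 113 CPM per strain.

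Angpt2, a context-dependent antagonist of Tek, averaged 4.77 ± 0.626 CPM in NZO/HlLtJ and 5.99 ± 1.01 CPM in CAST/EiJ hearts, against 4.23 ± 0.646 CPM in C57BL/6J hearts (SD, n = 8 each). It was higher in CAST/EiJ than in C57BL/6J by a log2 change of 0.50 (SE 0.11, adjusted p = 0.000904), and NZO/HlLtJ against C57BL/6J gave 0.17 (SE 0.11, adjusted p = 0.267). Of the 6 genes in the angiopoietin list, 2 were called higher and 2 lower in each comparison with C57BL/6J. Svep1, which encodes a large matrix protein that binds Tie1, ran the other way from Angpt1, with a log2 change of -0.64 in CAST/EiJ (SE 0.06, adjusted p = 1.38e-08) and 0.43 in NZO/HlLtJ (SE 0.06, adjusted p = 5.27e-06) against C57BL/6J. Ptprb, which encodes the phosphatase that dampens Tek, had a smallest adjusted p of 0.0846 among the strain comparisons, for NZO/HlLtJ against CAST/EiJ (log2 change -0.09, SE 0.05).

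Among the VEGF family, Vegfa averaged 319 ± 52.8 CPM in NZO/HlLtJ and 456 ± 65.9 CPM in CAST/EiJ hearts, against 332 ± 39.8 CPM in C57BL/6J hearts (SD, n = 8 each). Its log2 change was 0.46 in CAST/EiJ (SE 0.09, adjusted p = 0.000612) and -0.06 in NZO/HlLtJ (SE 0.09, adjusted p = 0.65) against C57BL/6J. Pgf, which encodes the Flt1 ligand placental growth factor, rose in NZO/HlLtJ to 4.43 ± 0.953 CPM, against 2.73 ± 0.617 CPM in C57BL/6J hearts (log2 change 0.71, SE 0.11, adjusted p = 6.08e-05). In this list of 8 genes, 4 were called higher and 0 lower in each of NZO/HlLtJ and CAST/EiJ against C57BL/6J. The median log2 change of the list was 0.11 in NZO/HlLtJ and 0.21 in CAST/EiJ, against 0.00 over all genes in both. Vegfb showed log2 changes between -0.04 and 0.06 in the 3 strain comparisons, with adjusted p of 0.312 or more.

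Of 17 other junction and surface genes, 5 rose and 1 fell in NZO/HlLtJ, and 9 rose and 2 fell in CAST/EiJ, each against C57BL/6J. Jam2, which encodes a junctional adhesion molecule, fell in CAST/EiJ to 103 ± 7.76 CPM, against 173 ± 8.39 CPM in C57BL/6J hearts (SD, n = 8 each), a log2 change of -0.75 (SE 0.05, adjusted p = 5.31e-11). In NZO/HlLtJ hearts Jam2 rose to 217 ± 13.1 CPM, a log2 change of 0.32 (SE 0.05, adjusted p = 1.37e-05). Mmrn2, which encodes an endothelial matrix protein, averaged 72.7 ± 4.88 CPM in CAST/EiJ, against 44.1 ± 2.76 CPM in C57BL/6J hearts (log2 change 0.72, SE 0.04, adjusted p = 2.89e-11). Tjp1, the gene of the junction scaffold ZO-1, rose in CAST/EiJ by 0.49 on the log2 scale (SE 0.03, adjusted p = 1.41e-10). Cd34, a sialomucin gene like Emcn, rose in NZO/HlLtJ by 0.30 (SE 0.05, adjusted p = 3.01e-05).

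Of 18 endothelial transcription factor genes, 0 rose and 1 fell in NZO/HlLtJ, and 7 rose and 0 fell in CAST/EiJ, against C57BL/6J. These are 5.56% and 38.9% of the list, both below the 35.5% and 58.8% of all genes called. The gene that fell in NZO/HlLtJ was Fli1, an ETS factor gene, with a log2 change of -0.17 (SE 0.06, adjusted p = 0.0433). In CAST/EiJ the ETS factor genes Ets2 (log2 change 0.54, SE 0.08, adjusted p = 1.88e-05) and Erg (0.24, SE 0.06, adjusted p = 0.00327) were among those that rose, and so was Sox7 (0.36, SE 0.11, adjusted p = 0.01). Of 12 Notch and arterial genes, 4 rose and 0 fell in NZO/HlLtJ, and 8 rose and 1 fell in CAST/EiJ. Gja5, the gene of the arterial connexin 40, rose in CAST/EiJ by 0.84 on the log2 scale (SE 0.14, adjusted p = 0.000142). The Notch target gene Hey1 rose in CAST/EiJ by 0.77 (SE 0.15, adjusted p = 0.000359), and Bmx, which encodes a kinase of arterial endothelium, was the gene that fell, with a log2 change of -0.94 (SE 0.16, adjusted p = 5.6e-05).

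Of 11 venous and activated endothelial genes, 3 rose and 0 fell in NZO/HlLtJ, and 4 rose and 4 fell in CAST/EiJ, against C57BL/6J. Ephb4, the venous receptor gene for ephrin-B2, rose in CAST/EiJ by 0.40 on the log2 scale (SE 0.04, adjusted p = 1.5e-07), and Nr2f2, the venous identity factor gene, by 0.45 (SE 0.08, adjusted p = 8.27e-05). Apln, which encodes the peptide apelin, had a log2 change of -0.92 there (SE 0.11, adjusted p = 5.99e-07). Of 5 endocardial genes, 2 rose and 0 fell in NZO/HlLtJ, and 1 rose and 3 fell in CAST/EiJ. Cytl1 averaged 27.3 ± 5.87 CPM in NZO/HlLtJ and 6.64 ± 1.28 CPM in CAST/EiJ hearts, against 11.9 ± 2.75 CPM in C57BL/6J hearts (SD, n = 8 each). Its log2 change against C57BL/6J was 1.20 (SE 0.14, adjusted p = 1.06e-05) in NZO/HlLtJ and -0.84 (SE 0.15, adjusted p = 0.0002) in CAST/EiJ.

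Of 7 lymphatic genes, 2 rose and 0 fell in NZO/HlLtJ, and 2 rose and 4 fell in CAST/EiJ, against C57BL/6J. The chemokine gene Ccl21a rose in both, by 0.76 in NZO/HlLtJ (SE 0.09, adjusted p = 3.37e-06) and 0.95 in CAST/EiJ (SE 0.09, adjusted p = 6.84e-08), and its counts are uncertain because near-identical gene copies exist. Prox1, the lymphatic identity factor gene, had a log2 change of -0.47 in CAST/EiJ (SE 0.08, adjusted p = 6.69e-05). Of 9 genes of BMP9 and ALK1 signalling, 2 rose and 0 fell in NZO/HlLtJ, and 1 rose and 0 fell in CAST/EiJ. Acvrl1, the gene of the receptor ALK1, rose in NZO/HlLtJ by 0.35 (SE 0.07, adjusted p = 0.00064), and the inhibitor gene Smad7 rose in CAST/EiJ by 0.34 (SE 0.12, adjusted p = 0.0248).

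Of 12 haemostasis and vasoactive genes tested, 4 rose and 1 fell in NZO/HlLtJ, and 5 rose and 4 fell in CAST/EiJ, against C57BL/6J. Tfpi, which encodes an inhibitor of the tissue factor pathway, fell in NZO/HlLtJ to 40.5 ± 6.36 CPM, against 70.1 ± 6.83 CPM in C57BL/6J hearts (SD, n = 8 each), a log2 change of -0.79 (SE 0.06, adjusted p = 3.84e-09), so that this gene and Vwf were both lower in NZO/HlLtJ. F8, the gene of the clotting factor that von Willebrand factor carries, averaged 3.58 ± 0.686 CPM in NZO/HlLtJ and 1.55 ± 0.437 CPM in CAST/EiJ, against 4.07 ± 0.711 CPM in C57BL/6J hearts, and fell in CAST/EiJ (log2 change -1.40, SE 0.14, adjusted p = 9.38e-08). Procr, which encodes the endothelial protein C receptor, rose in both strains, by 1.63 in NZO/HlLtJ (SE 0.15, adjusted p = 5.63e-08) and 1.71 in CAST/EiJ (SE 0.15, adjusted p = 9.04e-09), relative to a low level of 0.872 ± 0.235 CPM in C57BL/6J hearts.

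Of 12 genes of capillary fatty acid and water transport, 1 rose and 2 fell in NZO/HlLtJ, and 6 rose and 3 fell in CAST/EiJ, against C57BL/6J. Fabp5, which encodes a fatty acid binding protein, fell in NZO/HlLtJ to 18.1 ± 1.75 CPM and rose in CAST/EiJ to 36.1 ± 5.75 CPM, against 25.9 ± 2.47 CPM in C57BL/6J hearts (SD, n = 8 each). Its log2 change was -0.52 (SE 0.06, adjusted p = 1.05e-06) in NZO/HlLtJ and 0.47 (SE 0.06, adjusted p = 1.09e-06) in CAST/EiJ. Aqp7, the gene of a glycerol channel, fell in CAST/EiJ by 1.52 on the log2 scale (SE 0.07, adjusted p = 9.65e-13). The fatty acid receptor gene Cd36 had the second smallest adjusted p of all listed genes for diet over all strains, 0.093 (log2 change 0.23, SE 0.05). Of 9 hypoxia response genes, 3 rose and 2 fell in NZO/HlLtJ, and 5 rose and 0 fell in CAST/EiJ. Pdk1, a kinase gene that restrains pyruvate oxidation, averaged 45.1 ± 4.31 CPM in NZO/HlLtJ and 326 ± 19.0 CPM in CAST/EiJ, against 209 ± 13.6 CPM in C57BL/6J hearts (log2 change -2.22, SE 0.05, adjusted p = 4.19e-17 in NZO/HlLtJ). Many of these genes are also expressed by cells other than endothelium.

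Markers of other cells moved with strain as well. The 10 fibroblast markers summed to 2858 to 3614 CPM in NZO/HlLtJ libraries, against 1752 to 2137 CPM in CAST/EiJ and 2101 to 2396 CPM in C57BL/6J libraries, and 10 of 10 were called higher in NZO/HlLtJ than in C57BL/6J, where 17.9% of all genes were. The 10 pericyte markers summed to 922 to 1113 CPM in NZO/HlLtJ and 975 to 1202 CPM in CAST/EiJ, against 1182 to 1376 CPM in C57BL/6J libraries, with 5 lower and 1 higher in NZO/HlLtJ and 4 lower and 4 higher in CAST/EiJ against C57BL/6J. Schwann cell markers, 6 in number, summed to 14.3 to 18.3 CPM in NZO/HlLtJ, against 8.42 to 12.5 CPM in C57BL/6J libraries. Skeletal muscle markers summed to 2557 to 4824 CPM in NZO/HlLtJ, above 1312 to 1604 CPM in CAST/EiJ and 1333 to 1735 CPM in C57BL/6J libraries. The gene of highest level in that list was Ckm, and the list as a whole did not follow its sum. In NZO/HlLtJ against C57BL/6J, 2 of 7 tested were called higher and 2 lower. Only 2 of the 7 log2 changes there were positive, with a median of -0.63 against 0.00 over all genes. Actn3, Myh4, Pvalb and Tnnt3 of that list were at 0 in some libraries. The part of these markers in the strain differences of the 10 endothelial genes was not tested. Summed markers of cardiomyocytes, smooth muscle cells and macrophages overlapped in range in each pair of strains. Of 10 macrophage markers, 0 were called higher and 4 lower in NZO/HlLtJ, and 1 higher and 4 lower in CAST/EiJ, against C57BL/6J. T and NK cell markers summed to at most 2.84 CPM, and Cd3d, Cd3e, Cd3g, Cd8a and Nkg7 were at 0 in some libraries. Over the 24 libraries with group means removed, the index had a Pearson r of 0.51 with the summed pericyte markers, -0.46 with those of white adipocytes and -0.16 with those of cardiomyocytes, given as descriptions of libraries that share depth and composition.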

How the data were processed

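Poly(A) RNA of mouse hearts was sequenced as paired reads in 24 libraries, per the labels' protocols. The authors deposited expected counts per gene, estimated read counts of which 19.3% were not whole (tolerance 1e-06), and a matrix of variance-stabilized, log2-like values. Per the submitters' processing notes, the build was GRCm38 and DESeq2 was among the tools. Aligner, counter and strand setting were not given in the sources used here.

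Expected counts were rounded and fitted with edgeR 4.0.16 in R 4.3.3. filterByExpr (minimum count 10, minimum total 15) kept 17203 genes. A robust quasi-likelihood model with TMM scaling and 12 group means was fitted, and p-values were adjusted by Benjamini-Hochberg over all genes at 0.05, two-sided, in 11 contrasts. The biological coefficient of variation was 0.127. The test recovered known changes in simulated data, in which all genes had the same spread. That check does not settle how often the smaller changes of the 10 genes would be found at their own spread. Alternatives used limma 3.58.1, DESeq2 1.42.0, other scalings, filters and designs, and left-out libraries. SE is the log2 change over the root of F. Gene lengths are merged exons of GENCODE M21. The deposited log2-like values entered only an alternative index. Replicate numbers follow accession order and pair no samples.

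The members and lists were chosen with earlier results of these data known. Named were the 10 members, genes among the 3 of smallest adjusted p in a list and contrast, and the 8 genes most like the index. Vegfd and Cavin2 of the lists stand in the files under the older symbols Figf and Sdpr.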

Additional observations from a re-analysis of the deposited data

Results flagged for a closer look

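In each strain and diet group of 4 libraries, the highest and lowest library of each of the 10 genes was set against its neighbours by Dixon's gap, and 4 of 60 groups stood out, where chance flags about 1 in 20. Cdh5 was at 262 CPM in the first CAST/EiJ female library at 44% fat, with the nearest other library of the group at 186 CPM. Tek was at 90.0 CPM in the same library, with the nearest at 74.8 CPM. Flt1 was at 206 CPM in the second CAST/EiJ female library at 44% fat, with the nearest at 172 CPM. Tie1 was at 97.0 CPM in the first CAST/EiJ male library at 10% fat, below its nearest at 104 CPM. All 4 values lie in CAST/EiJ groups, and their cause was not tested.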

How the results depend on the processing

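No paired analysis was possible because the labels carry no replicate numbers, so a replicate block could not be fitted. Of 4090 values of the 10 genes under 38 settings, 14 of them planned settings other than left-out libraries, 0 changed sign in a called comparison. Among uncalled values, which include every diet effect, 246 changed sign. A call was lost for 13 values and gained for 22. The count of the 10 genes called kept within 1.5 times in every comparison except these. For NZO/HlLtJ against C57BL/6J it was 2 in place of 4 with identifier range as a term, leaving Emcn and Vwf. For CAST/EiJ against C57BL/6J it was 5 in place of 3 without both CAST/EiJ libraries that earlier results gave as apart, the first female at 44% fat and the first male at 10% fat, and between 3 and 5 without any 1 library. The cause was not tested. Emcn and Vwf in NZO/HlLtJ against C57BL/6J, Tek and Tie1 in CAST/EiJ against C57BL/6J, and Emcn, Tek, Tie1 and Vwf in NZO/HlLtJ against CAST/EiJ were called under each setting run for them, with Emcn between 0.21 and 0.27 and Vwf between -0.60 and -0.39 in the first of these comparisons. Only 2 libraries per group, and 1 shared estimate of spread, limit the precision of each diet effect.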
